A study of Drosophila melanogaster with 24 samples.

Results

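The 10 genes described here are the Wnt ligands *wg*, *Wnt2*, *Wnt4*, *Wnt5* and *Wnt6*, the receptors *fz*, *fz2* and *fz3* of the Frizzled family, the co-receptor *arr* and the ligand carrier *wls*. They were chosen by symbol, and all 10 are among the 13395 genes listed on at least 1 day. RNA was sequenced from 24 libraries of *Drosophila* testis cells, in which either *Set1*, which encodes a histone H3K4 methyltransferase, or mCherry, which flies lack, was targeted by RNAi. In *Set1* KD testes, *nos-Gal4* drove a *Set1* RNAi transgene, and in Ctrl KD testes the same driver drove an mCherry RNAi transgene, so both genotypes carry the driver. Males were taken on days 0, 1, 3 and 5 after eclosion, with 3 libraries per genotype and day, each from pooled testis pairs. Following the paper, flies of both genotypes were moved at eclosion from a lower to a higher temperature and aged there. Age and time since this move thus cannot be told apart. The driver works in germ cells of the early stages, but other cell types entered the libraries too. For the RNA, testes were desheathed and dissociated with enzymes and the cells were filtered, with no sorting by cell type described.

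The measurement is the authors' mean normalized count of each gene on each day. It is a single value over 6 libraries, 3 *Set1* KD and 3 Ctrl KD, so it carries no spread between replicates and no difference between the genotypes. The contrast of *Set1* KD with Ctrl KD was not analysed here, because it stands in the deposited tables only as the authors' own fold changes and tests. Depth per library was likewise not used, and all comparisons of values are descriptions with no test. For the same reason it cannot be said which neighbours in an order of levels differ beyond their spread.

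Wnt proteins are secreted, lipid-modified signals. The multi-pass membrane protein encoded by *wls* (Wntless, also named Evenness interrupted) carries them to the surface of the sending cell. On the receiving cell, a Frizzled receptor and the co-receptor Arrow, the fly relative of LRP5/6 in vertebrates, bind the ligand and lead to stabilisation of Armadillo, the fly β-catenin. Frizzled also acts in planar cell polarity, which does not run through Armadillo. In the fly gonad, *Wnt2* is known for its role in forming the pigment cells of the testis sheath.

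The labelled tissue was checked with marker genes. Transcripts of *dj* and *Mst87F*, made in late germ cells, had 20999 and 44521 mean normalized counts per kb of exon at day 0. The 4 early germ cell markers with an exon length had a median of 75.2, from 31.0 for *bam* to 201.1 for *bgcn*. The 4 cyst lineage markers had a median of 85.5 at day 0, from 8.28 for *tj* to 251.6 for *eya*. Of other cells, the hub ligand *upd1* had 66.0 and the muscle gene *Mhc* had 1958. The label gives the cell type as germ cell, but RNA of cyst, hub and muscle cells was thus present. Whether the muscle RNA came from the testis sheath cannot be told from this gene. The hemocyte genes *Hml* and *NimC1* had 12.6 and 7.48 in the same unit. RNA of the accessory gland, a neighbouring tissue, was present too, with 437.8 for *Acp26Aa* and 198 for *Acp36DE* at day 0. The symbol *Acp70A* was not found on any day, but a listing under another name would be missed.

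All 10 genes were listed on all 4 days. In all, 12714, 12996, 12961 and 12620 genes are listed on days 0, 1, 3 and 5, with a lowest mean normalized count of 5.27, 5.07, 5.13 and 4.96 on these days. The ligand *wg*, at 9.69 mean normalized counts on day 0, lay closest of the 10 genes to this lower edge.

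Levels of different genes were compared per kb of annotated exon within a day. The 10 genes had a median of 43.2, 58.1, 81.5 and 67.8 mean normalized counts per kb on days 0, 1, 3 and 5. Over all listed genes with an exon length the median was 116.5, 144.1, 162.1 and 143.7 on the same days. *Wnt2* and *wls* lay above this median on each day and *Wnt4* from day 1 on, whereas the other 7 genes lay below it.

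**Figure D1:**
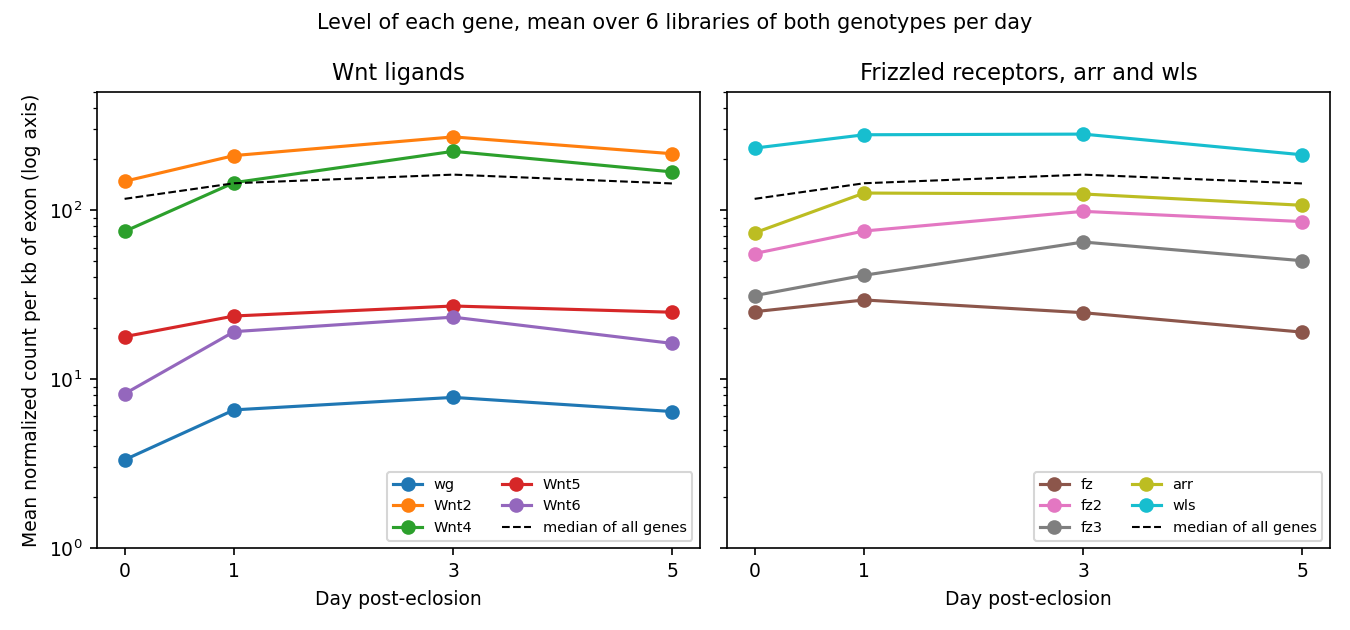
Level of each gene (mean normalized count per kb of exon, log axis) against the day post-eclosion, with ligands at left and receptors, *arr* and *wls* at right. Each point is 1 mean over the 6 libraries of both genotypes, so there are no error bars, and days were normalized separately. *Wnt2* and *wls* lie above the median of all genes (dashed line) on each day, and *wg* is lowest on each day.

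Among the ligands, *Wnt2* was the most abundant. Its mean normalized count was 331.5, 470.9, 607.3 and 482.8 on days 0, 1, 3 and 5. Per kb of exon this is 148, 210.2, 271.1 and 215.5, above the level of 54.8% of genes at day 0 and 60.3% at day 3. *Wnt2* lies on chromosome arm 2R (BDGP6, 9494166 to 9503188), apart from the other ligand genes.

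*Wnt4*, a ligand that works in cell movement as well as in patterning, was next. It had 251.6, 489.4, 749.9 and 566.4 mean normalized counts on days 0, 1, 3 and 5. Per kb of exon the level was 74.7, 145.3, 222.7 and 168.2, which is above 40.7% of genes at day 0 and 56.6% at day 3. Within a day, where no scaling between tables enters, the level of *Wnt4* per kb was 0.505, 0.691, 0.822 and 0.781 times that of *Wnt2* on days 0, 1, 3 and 5. *Wnt4* thus came nearer to *Wnt2* on the later days without reaching it.

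*Wnt5*, which in the fly nervous system signals through the Ryk-type receptor Derailed, had 71.3, 94.5, 108.3 and 99.4 mean normalized counts on days 0, 1, 3 and 5. Per kb of exon these are 17.8, 23.6, 27.0 and 24.8, and 14.35% to 17.7% of genes were lower. *Wnt5* lies on the X chromosome (18501401 to 18505405, minus strand).

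*Wnt6* and *wg* were the scarcest ligands per kb of exon, although per kb of coding sequence *Wnt6* passed *Wnt5* on days 1, 3 and 5. *Wnt6* had 23.3, 54.4, 66.3 and 46.3 mean normalized counts on days 0, 1, 3 and 5. The founding member *wg*, the best known fly Wnt, had 9.69, 19.2, 22.7 and 18.7 on these days. Per kb of exon, *wg* stood at 3.32 at day 0 and 7.78 at day 3, with 1.05% and 4.61% of genes below it. Per kb, *Wnt6* was 2.46, 2.91, 2.98 and 2.53 times as abundant as *wg* on the same days.

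Some of the ligand genes are close neighbours. *Wnt4* (7255419 to 7277171, minus strand), *wg* (7307159 to 7316265, plus strand), *Wnt6* (7333714 to 7352542, plus strand) and a further Wnt gene, *Wnt10* (7363379 to 7377528, plus strand), lie within 122.1 kb of chromosome arm 2L in BDGP6. Only 1 other protein-coding gene, *CG31909*, lies in this stretch, within the span of *Wnt4*. The levels of these neighbours were far apart: at day 3, *Wnt4* was 28.6 times as abundant per kb of exon as *wg*, and *Wnt10* was listed at day 1 alone, with a mean normalized count of 9.03. The exons of *Wnt4*, *wg* and *Wnt6* overlap no exon of another annotated gene.

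The make-up of the ligand transcripts was described by each gene's share of the summed level per kb. *Wnt2* and *Wnt4* together held most of it on each day. The share of *Wnt2* was 58.7%, 51.9%, 49.1% and 49.98% on days 0, 1, 3 and 5, and that of *Wnt4* was 29.7%, 35.9%, 40.4% and 39.0%. *Wnt5* held 4.90% to 7.06%, *Wnt6* 3.24% to 4.71% and *wg* 1.32% to 1.62%. Shares cannot be traced to cell types here, since fewer cells of a type and less RNA per cell cannot be told apart in a mixed tissue.

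**Figure D2:**
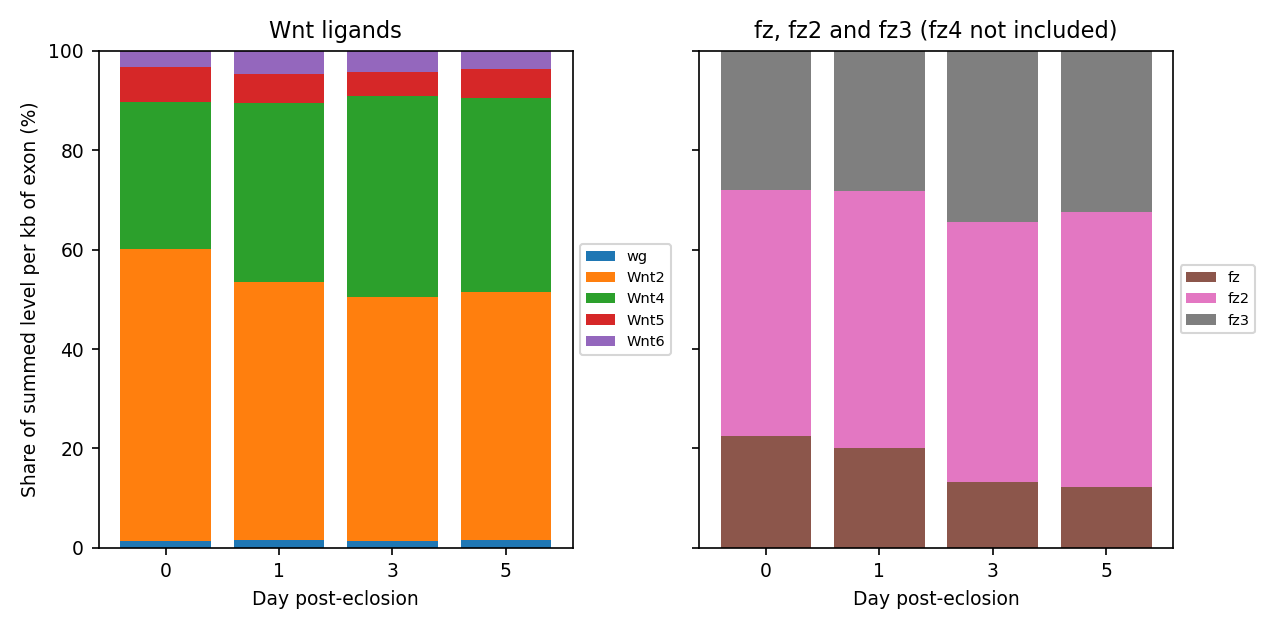
Share (%) of each gene in the summed mean normalized count per kb of exon, for the 5 ligands at left and *fz*, *fz2* and *fz3* at right, without *fz4*, by day post-eclosion. Each bar rests on means over the 6 libraries of both genotypes. *Wnt4* fills 29.7% of the ligand bar at day 0 and 40.4% at day 3, and *fz* fills 22.4% of the receptor bar at day 0 and 12.3% at day 5.

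Of *fz*, *fz2* and *fz3*, *fz2* was the most abundant and *fz* the least. A further Frizzled gene, *fz4*, which is not among the 10 genes and was singled out after its values were seen, had 95.9, 160.5, 161 and 124 mean normalized counts per kb of exon on days 0, 1, 3 and 5, above *fz2* on each day. Per kb of coding sequence it was above *fz2* on days 0, 1 and 3 (178.1, 298 and 298.9, against 165.6, 225.1 and 294.2 for *fz2*) and below it at day 5 (230.3, against 255.9). *fz2*, which binds Wg with high affinity, had 410.3, 557.8, 729.1 and 634.2 mean normalized counts on days 0, 1, 3 and 5. Its annotated exons are long, at 7422 bases, so its level per kb was modest at 55.3, 75.2, 98.2 and 85.4, with 34.4% to 39.7% of genes below it. *fz3*, a receptor gene that Wg signaling itself activates in wing discs, had 116.1, 153.2, 241 and 186.7 mean normalized counts on the same days, or 31.1, 41.1, 64.7 and 50.1 per kb.

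The mean normalized count of *fz*, the receptor gene shared by Wg signaling and planar cell polarity, was 95.5, 112, 94.1 and 72.3 on days 0, 1, 3 and 5. Per kb of exon it was 25.0, 29.4, 24.7 and 18.9. Of these 3 receptor genes, *fz* alone had a lower mean at days 3 and 5 than at day 0. At day 3 the gap was small (94.1 against 95.5), and days were normalized separately. Set against *fz2* within a day, *fz* was 0.453, 0.391, 0.251 and 0.222 times as abundant per kb of exon on days 0, 1, 3 and 5. *fz3* had 0.547 to 0.658 times the level of *fz2* per kb of exon. Per kb of coding sequence these ratios were lower, at 0.314, 0.271, 0.174 and 0.154 for *fz* and 0.351 to 0.423 for *fz3*. The share of *fz* in the sum of *fz*, *fz2* and *fz3* was 22.4%, 20.2%, 13.1% and 12.3% on days 0, 1, 3 and 5, and 12.1%, 9.59%, 7.08% and 6.80% with *fz4* in the sum. Both *fz* (94297 bases) and *fz2* (94399 bases) span long stretches of arm 3L, at 14274343 to 14368639 on the plus strand and 19140975 to 19235373 on the minus strand, and *fz3* lies on the X chromosome (769945 to 784222).

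The co-receptor gene *arr* had 441.5, 759.7, 750.2 and 642.6 mean normalized counts on days 0, 1, 3 and 5. Per kb of exon it had 73.3, 126.1, 124.5 and 106.7, which is 1.33, 1.68, 1.27 and 1.25 times the level of *fz2* on the same days. This order depends on the length used: per kb of the longest coding sequence, which for *arr* is 5034 bases of 6024 exon bases and for *fz2* 2478 of 7422, *arr* had 0.530, 0.670, 0.506 and 0.499 times the level of *fz2*.

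The carrier gene *wls* had 598.8, 718.4, 724.7 and 546.7 mean normalized counts on days 0, 1, 3 and 5. With 232.7, 279.1, 281.6 and 212.4 per kb of exon it was the highest of the 10 genes on days 0, 1 and 3, and second to *Wnt2* at day 5. Per kb of coding sequence *wls* was highest at day 0 alone. The level of the 5 ligands summed per kb of exon was 1.08, 1.45, 1.96 and 2.03 times that of *wls* on days 0, 1, 3 and 5. Against *fz*, *fz2* and *fz3* summed, the ligands were 2.26, 2.78, 2.94 and 2.79 times as abundant on these days, and 1.22, 1.32, 1.58 and 1.55 times with *fz4* in the sum. *wls* lies on arm 3L (11166620 to 11169625), and its exons share 1 base with those of *Alg10* on the other strand.

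Levels of the same gene on different days come from tables that were normalized separately, so each log2 ratio over day 0 was taken relative to the median gene. The later days also differ from day 0 in time at the higher temperature, so these ratios do not show age alone. The median log2 ratio for days 1, 3 and 5 was 0.41, 0.51 and 0.20, over 12385, 12256 and 12100 genes with a mean of at least 10 on both days. At day 3, 8 of the 10 genes lay above the median gene and 2 below, with a median of 0.34 on the log2 scale. At day 5 the counts were again 8 and 2 (median 0.39), and at day 1 they were 6 and 4 (median 0.06).

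The genes that stood highest in this comparison were *Wnt4*, *Wnt6* and *wg*, which are neighbours on arm 2L. The further neighbour *Wnt10* was listed at day 1 alone and has no ratio over day 0. The log2 ratio of *Wnt4* over day 0, relative to the median gene, for days 1, 3 and 5 was 0.55, 1.06 and 0.97. At day 3 this is 2.09-fold relative to the median gene, above 98.9% of genes. For *Wnt6* the log2 ratio was 0.81, 0.99 and 0.79, above 99.3% of genes at day 1 and 96.7% at day 5. For *wg*, it was 0.57, 0.71 and 0.75, above 96.4% to 98.3% of genes. The *wg* ratios rest on a day 0 mean of 9.69, below the minimum of 10 set for the genes they were ranked among.

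*fz* lay at the other end, with a log2 ratio relative to the median gene of -0.18, -0.53 and -0.60 for days 1, 3 and 5, and at day 5 only 7.22% of genes were lower. Without centring its ratio was 0.23 at day 1, on the other side of zero, but -0.02 at day 3 and -0.40 at day 5. *wls* had -0.15, -0.24 and -0.33 relative to the median gene, against 0.26, 0.28 and -0.13 without centring, so that its direction on days 1 and 3 depends on the scaling. The ratios of the other 5 genes at day 3 were between 0.09 for *Wnt5* and 0.54 for *fz3*.

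**Figure D3:**
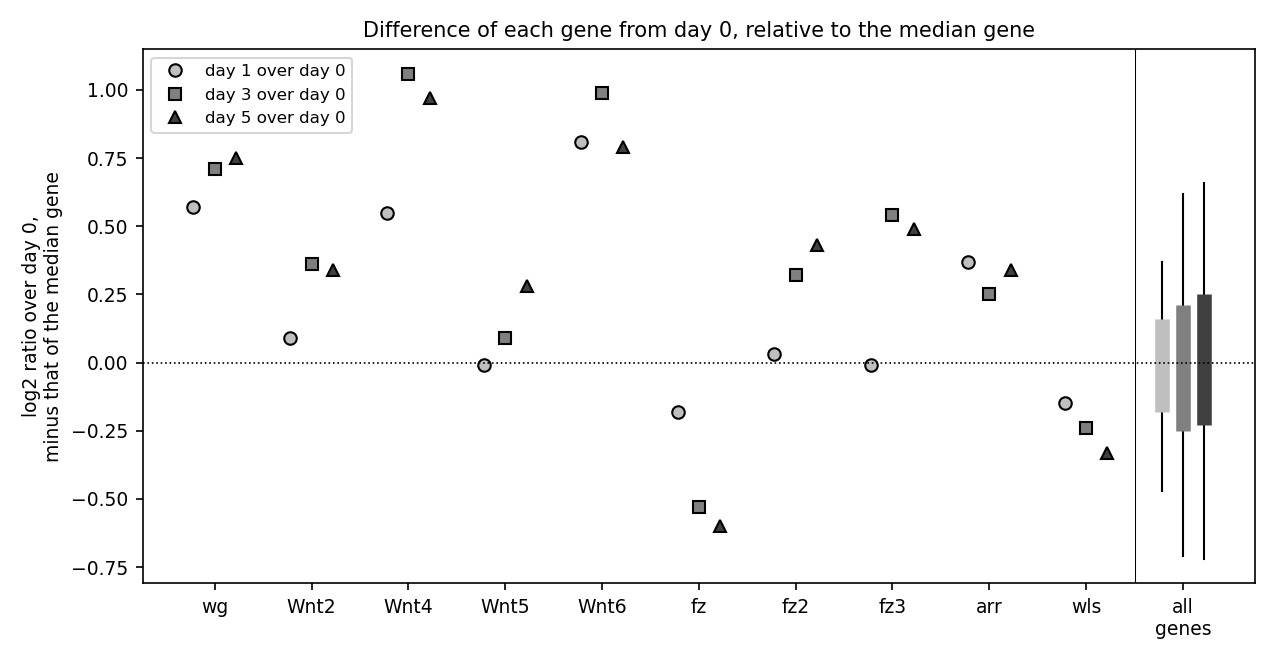
The log2 ratio of each gene's mean normalized count over day 0, minus that of the median gene, for days 1, 3 and 5. Points are single ratios of means over both genotypes and have no error bars, and at right thick bars span the range between the quartiles of all genes and thin lines the 5th to 95th percentile. *Wnt4* reaches 1.06 at day 3 and *fz* -0.60 at day 5.

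The make-up of the samples differed between days as well. Relative to the median gene, all 3 muscle markers were lower than at day 0 on each later day, with a median log2 ratio of -1.24 at day 3 and -1.52 at day 5. Both hemocyte markers were higher, at a median of 2.18 and 3.10. All 4 cyst lineage markers lay above the median gene at days 3 and 5 (medians 0.23 and 0.32, with *tj* at 1.76 at day 3). Of the 5 early germ cell markers, all lay above it at day 3 (median 0.51). At day 5, 4 of them lay above it and 1 below (median 0.55). The 3 hub markers had a median of 0.13 at day 3 and -0.06 at day 5, and the 7 markers of spermatocytes and spermatids -0.12 and -0.14. The accessory gland genes *Acp26Aa* and *Acp36DE* had -5.01 and -1.71 at day 3, and -1.70 and 0.02 at day 5. The part of these differences in the ratios of the Wnt genes was not tested, nor was the part of the *Set1* KD libraries in them.

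The rest of the pathway was described from a list of 29 genes. No gene stood under the symbol *WntD* on any day, but symbols were matched as written, so a listing under another spelling would be missed. Of the 29, 27 genes were listed on all 4 days, with a median of 85.7 mean normalized counts per kb at day 0 and 140.4 at day 3. The highest levels were those of *gish*, a casein kinase I gene, with 1604 per kb at day 0, *dsh*, the adaptor that relays the signal from Frizzled receptors (819.7), and *slmb*, which encodes the ubiquitin ligase subunit that targets Armadillo for degradation (719.3). The lowest were *stan* and *dgo*, both of planar cell polarity, with 2.00 and 6.78 per kb, and *Drl-2*, a Ryk-type receptor gene, with 5.56. At day 3, the log2 ratio over day 0 relative to the median gene had a median of 0.12 over this list, with 21 genes above the median gene, 5 below and 1 level with it at 0.00, and the highest value was 0.97, against 1.06 for *Wnt4*.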

How the data were processed

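The deposited tables hold 1 comparison per day. Following the methods and the submitters' processing notes, the authors mapped reads with Bowtie2 2.5.1 to dm6 (Release 6), counted them on RefSeq genes with featureCounts and ran DESeq2 per day. The mean normalized count is a signal that the authors computed with DESeq2's size factors over the 6 libraries of a day. The tables also hold the authors' log2 fold change, its standard error, the statistic and p-values, which are their own comparison and were not used. The filter behind the lowest mean is not given in the sources used here, nor is the strand setting of the counting.

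Exon and coding lengths and positions came from Ensembl release 115 (BDGP6, the same assembly), and 13355 of 13395 genes had an exon length. Members had the same start and end in RefSeq. Levels per kb, shares, percentiles and ratios between days relative to the median gene (means of at least 10) were computed with Python 3.11.15, numpy 2.4.6 and pandas 2.3.3, and plotted with matplotlib 3.10.9. The centring was tested on simulated data in which few genes changed, in equal numbers up and down. That setting cannot show whether the median gene itself shifted in these data. The 10 genes, the lists and the pairs set in ratio were chosen with earlier results of these data known. All 10 are named, and of the pathway list those not found by symbol on a day and the 3 highest and 3 lowest at day 0 among genes listed on all 4 days. Alternatives were the coding length, a minimum of 10 for percentiles of the mean normalized count at day 3, and no centring. Others were all genes for the median, a pseudocount of 1, and list medians over genes listed on all 4 days. The planned description of protein sequences was not run.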

Additional observations from a re-analysis of the deposited data

How the results depend on the processing

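The values are single means over both genotypes, so no replicate could be left out and no spread or interval can be given. No paired analysis was possible because the pooled means hold no value per replicate. A value was taken as moved beyond 10% for levels, 0.1 for log2 ratios, 5 points for percentiles, or by any change of place. Without centring, all 30 log2 ratios over day 0 moved by the shift of the median gene, and 5 changed sign: *Wnt5* (0.41), *fz* (0.23), *fz3* (0.40) and *wls* (0.26) at day 1, and *wls* at day 3 (0.28). Taking the median over all genes or adding a pseudocount of 1 moved 0 of 30 ratios each. The coding length changed the place of a gene among the 10 in 10 of 20 values, taken at days 0 and 3. Days 1 and 5, where places changed too, were not part of this count. The minimum of 10 moved 0 of 10 percentiles, which were those of the mean normalized count at day 3. The percentiles per kb of exon given above were not checked in this way. Of the list medians, 0 of 4 moved. Adding *fz4* to the Frizzled sum, an alternative chosen after seeing the data, lowered the ligand to receptor ratio at day 0 to 1.22 and the share of *fz* at day 0 to 12.1%, and all 8 such values moved.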
